A study of Bos grunniens with 18 samples.

Results

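The proteasome is the multi-subunit protease that degrades ubiquitin-tagged proteins. Its 20S core is a barrel of alpha and beta rings, in which PSMB5, PSMB6 and PSMB7 carry the catalytic sites, and the 19S particle on top of it recognises, unfolds and feeds in the substrates. Interferons induce a second set of catalytic subunits, PSMB8, PSMB9 and PSMB10, which take the places of PSMB5, PSMB6 and PSMB7 in newly built cores and make the immunoproteasome. Blood leukocytes carry much of this form, which favours peptides that bind MHC class I molecules.

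Members were the rows of the deposited gene table that KEGG assigns to the Proteasome pathway and that held at least 10 counts in at least 6 libraries, without the cytokine gene IFNG. The table had 63 such rows, of which 6 fell below the count rule and 1 was IFNG, so that 56 of 20607 genes remained. Of the 56 rows, 42 stand for a named subunit or factor: 7 alpha subunits, 4 non-catalytic and 3 constitutive catalytic beta subunits, the 3 immunosubunits, 19 subunits of the 19S particle, 4 activators, the inhibitor PSMF1 and the assembly factor POMP. The other 14 rows are unnamed copies or genes with another name that carry a proteasome orthology term, among them EMC8, EMC9, MITD1 and MPPE1. TTC39A had 10 counts in 8 libraries and is the member nearest to the limit, whereas C2orf72 had them in 2 libraries and was left out. PSMB11, the catalytic subunit of the thymus, never exceeded 4 counts.

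Whole blood of adult female yaks (*Bos grunniens*, 4 to 8 years old) was sequenced as 18 RNA libraries, 6 a stage. The stages were anestrus, called Y-A by the study, then estrus or Y-E, and last pregnancy or Y-P. According to the methods, blood of 6 cows was followed through the stages, estrus was synchronised with a progesterone pessary, a prostaglandin analogue and GnRH before timed insemination, and the day of pregnancy is not given in the sources used here. The labels do not state which libraries share a cow, so the p-values below measure the spread between libraries. Drug treatment and stage cannot be told apart where they coincide.

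The libraries held 30247267 to 48401076 counts. Markers of red cells, neutrophils, T cells, B cells, NK cells, monocytes and platelets were detected, as whole blood should show. Not every listed marker was among the deposited genes. Those summed were 5 of 7 for reticulocytes, 5 of 6 for neutrophils and 4 of 7 for T cells. They were 4 of 5 for NK and cytotoxic cells, 2 of 5 for platelets and all for B cells and monocytes. Hemoglobin transcripts were 3.10 to 16.7% of the counts in anestrus, 0.0272 to 0.376% in pregnancy and 0.0899 to 0.713% in 5 libraries of estrus, while Y-E replicate 6 stood apart at 8.36% and has no entry in the study's own sample tables. Summed neutrophil markers reached 2785 to 4882 CPM (counts scaled to the library total and by a TMM factor) in anestrus, 3858 to 8279 in estrus and 2200 to 3173 in pregnancy. T cell markers reached 694 to 888, 697 to 836 and 864 to 1448 CPM. Reticulocyte markers ranged from 475 to 10594, 150 to 4536 and 82.3 to 173 CPM. B cell markers had medians of 940, 805 and 1094 CPM, NK and cytotoxic markers 250, 217 and 253, monocyte markers 619, 715 and 467, and platelet markers 129, 123 and 100 CPM. In bulk blood, fewer cells of a type and less RNA per cell cannot be told apart.

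The 5 subunits PSMB9, PSMA7, SEM1, PSMA4 and PSMD6 were found only through their orthology term and their neighbours in the genome. The unnamed row ENSBGRG00000021991 on chromosome 24 (29602430 to 29612584) was read as PSMB9, because it carries that orthology term and lies beside TAP1 and PSMB8 in the same order as in the RefSeq annotation of the Bosgru_T2T1.0 assembly. An unnamed row on chromosome 12 was read as PSMA7 and one on chromosome 4 as SEM1. PSMA4 and PSMD6 stand under the names CHRNA5 and PRICKLE2, in gene models that join a pair of neighbouring genes, so their counts may include the neighbour. PSMB9 shares 424 bases with TAP1 on the opposite strand, and since the counting is not stated to use strand, reads there cannot be assigned. The same holds for the largest overlaps on the opposite strand, measured over whole gene spans. These were PSMB1 with FAM120B (17242 bases), PSMA4 with CHRNA3 (14961) and PSMD1 with HTR2B (14099). Unnamed near-copies of subunits can also share reads with them.

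Per length, immunosubunits made up most of the catalytic transcripts in blood at every stage. PSMB8, the immunosubunit of the chymotrypsin-like site, was the most abundant member, with a mean of 369 FPKM (fragments scaled by the length of the gene model and the library total), rank 165 of 20607 genes. It was followed by PSME1 and PSME2, the interferon-induced subunits of the PA28 activator, at 172 and 89.6 FPKM. PSMB9 and PSMB10 averaged 37.7 and 37.2 FPKM, near the median of 37.3 over the 42 subunits and factors. Of the constitutive catalytic subunits, PSMB6 averaged 51.5, PSMB7 21.1 and PSMB5 16.8 FPKM. The 3 immunosubunits took 80.5 to 84.9% of the FPKM of all 6 catalytic subunits in anestrus, 81.8 to 85.0% in estrus and 81.9 to 84.0% in pregnancy, and PSMB8 accounted for most of this share.

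The alpha ring subunits ranged from 8.86 FPKM for PSMA4 to 50.0 FPKM for PSMA2. The non-catalytic beta subunits ranged from PSMB1 at 17.1 to PSMB4 at 62.3 FPKM. Among the 6 ATPases of the 19S base, which unfold the substrate, PSMC3 was lowest at 22.2 and PSMC1 highest at 57.1 FPKM. In the rest of the 19S particle, PSMD4, a ubiquitin receptor, reached 77.3 FPKM and PSMD6 only 12.5. PSME4, an activator of its own kind (PA200), stood at 15.9, and POMP, which helps the core assemble, at 62.2 FPKM. FPKM depends on the gene model. The length implied by counts and FPKM was 5.23 kb for PSMB7, 5.72 and 4.85 kb for the joined PSMA4 and PSMD6 models, 4.33 kb for PSMB1 and 3.00 kb for PSMB9, against a median of 1.58 kb, so the levels of these 5 would be higher with a shorter model.

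**Figure D1:**
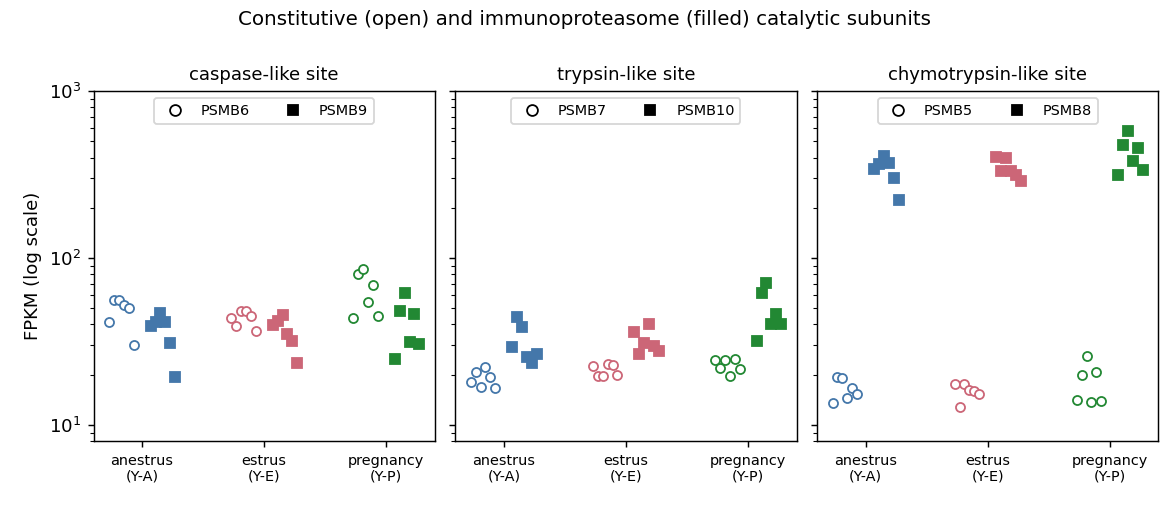
FPKM on a log axis of the constitutive catalytic subunits (open circles) and the immunosubunits that replace them (filled squares), 1 point per library, 6 libraries a stage. PSMB8 lay between 222 and 579 FPKM and PSMB5 between 12.8 and 25.9, while PSMB9 and PSMB6 overlapped within each stage.

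PSMB8 ran from 222 to 412 FPKM in anestrus with a median of 355, from 291 to 402 in estrus with a median of 333, and from 316 to 579 in pregnancy with a median of 421. PSMB5 ran from 13.6 to 19.3, 12.8 to 17.7 and 13.6 to 25.9 FPKM in the same order. The ranges of the 3 stages overlapped for both genes. PSMB9, the immunosubunit of the caspase-like site, had medians of 40.2, 37.4 and 38.6 FPKM, and PSMB6 had 51.5, 44.3 and 61.9. PSMB10, the immunosubunit of the trypsin-like site, ranged from 23.4 to 44.1 FPKM in anestrus, 26.5 to 40.5 in estrus and 31.9 to 70.5 in pregnancy, and PSMB7 had medians of 18.7, 21.3 and 23.2 FPKM. None of the 6 catalytic subunits passed edgeR's quasi-likelihood test between any 2 stages. With limma on log2(FPKM + 1), PSMB10 was called in pregnancy against anestrus at 0.60 (adjusted p = 0.038) and against estrus at 0.55 (adjusted p = 0.0425), a setting that also raised the median of all genes, to 0.15 and 0.14.

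Transcripts of each immunosubunit and of the constitutive subunit it replaces were compared as a ratio within a library, in which library scaling cancels. Such RNA ratios in mixed blood cells do not measure which subunits sit in assembled cores. PSMB8 exceeded PSMB5 by 14.4 to 25.7 times in anestrus, 18.8 to 25.9 times in estrus and 22.1 to 27.9 times in pregnancy. PSMB10 exceeded PSMB7 in every library, with geometric means of 1.60, 1.48 and 2.05. PSMB9 lay below PSMB6 in 17 of 18 libraries by FPKM, with geometric means of 0.75 in anestrus, 0.82 in estrus and 0.63 in pregnancy. That order rests on the gene models, since by counts alone the log2 ratio of PSMB9 to PSMB6 was at least 0.99 and that of PSMB10 to PSMB7 was below 0. Differences between stages do not depend on the model lengths. They could still include reads of a neighbour, since PSMB7 shares 874 bases with NEK6 on the opposite strand, as PSMB9 does 424 with TAP1, and the part of such reads was not tested.

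No difference between stages in a ratio passed the correction over the 9 ratio comparisons. From Y-E to Y-P, the log2 ratio of PSMB9 to PSMB6 differed by -0.38 (SE 0.13, n = 6 per stage, exact two-sided permutation p = 0.0195, adjusted 0.143). The ratio itself was 0.57 to 0.72 in the Y-P libraries and 0.65 to 1.07 in the Y-E libraries, which overlapped. The log2 ratio of PSMB10 to PSMB7 was higher by 0.46 (SE 0.19, exact permutation p = 0.0368, adjusted 0.143). From Y-A to Y-P, the difference was -0.25 for PSMB9/PSMB6 (SE 0.11, exact permutation p = 0.0476, adjusted 0.143) and 0.35 for PSMB10/PSMB7 (SE 0.24, exact permutation p = 0.171, adjusted 0.256). For PSMB8/PSMB5 estrus and anestrus differed by 0.09 (SE 0.15), pregnancy and anestrus by 0.23 (SE 0.14), and pregnancy and estrus by 0.14 (SE 0.09). Y-E and Y-A differed by 0.13 (SE 0.15) in PSMB9/PSMB6 and by -0.11 (SE 0.18) in PSMB10/PSMB7.

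Single libraries decided these calls. Without Y-E replicate 6, PSMB9/PSMB6 differed by -0.45 between Y-P and Y-E and passed (exact permutation, adjusted p = 0.039). Without Y-P replicate 1, PSMB10/PSMB7 differed by 0.59 and passed (exact permutation, adjusted p = 0.0195). The smallest p that 6 against 6 libraries allow is 0.00216.

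**Figure D2:**
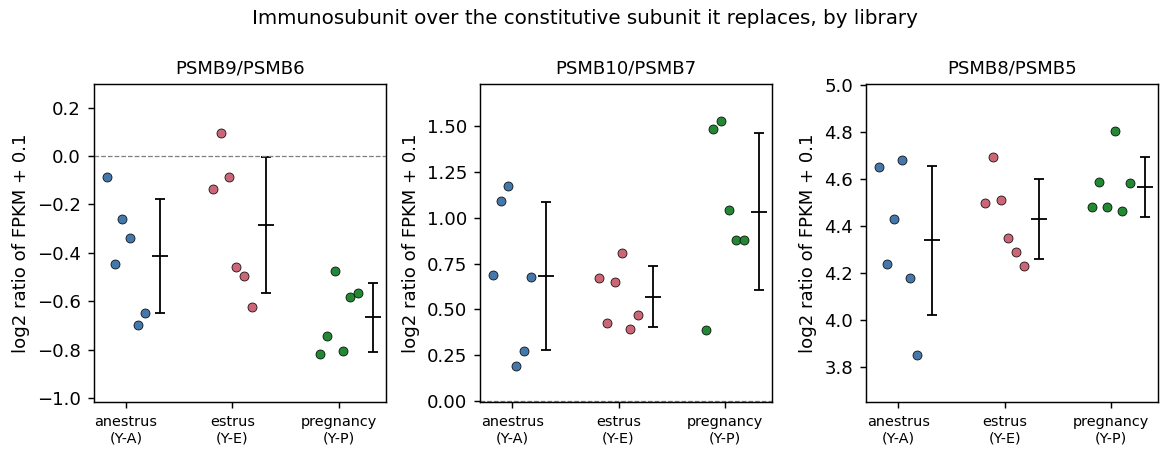
Log2 ratio of FPKM + 0.1 of each immunosubunit to the constitutive subunit it replaces, 1 point per library with mean and SD at the side (n = 6 per stage), the axes not starting at 0. PSMB9/PSMB6 was lowest in pregnancy, with a mean of -0.67 against -0.28 in estrus, while PSMB10/PSMB7 had its highest mean there at 1.03.

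Between estrus and anestrus, no single proteasome transcript differed detectably. In edgeR's quasi-likelihood test over 14508 genes, 0 of 56 members were called at an adjusted p under 0.05, where 0.0207% of all tested genes were called, and 0.0138% when the log2 fold change also had to reach 1 in either direction. No member reached even an unadjusted p of 0.05, a level that 900 of the 14508 genes reached. DESeq2 and limma called 0 members as well, with 0 and 1 at an unadjusted p under 0.05. The smallest adjusted p was 0.931 (edgeR), for PSMD11, a lid subunit whose log2 fold change was -0.13 (95% interval -0.31 to 0.05). ADRM1, a ubiquitin receptor of the 19S base, had the highest value among the named subunits at 0.23 (-0.11 to 0.58). The unnamed row ENSBGRG00000023193 had the lowest value of all members, -1.31 (-3.14 to 0.53), and no counts in some libraries. The members' median log2 fold change was -0.08, against -0.01 over all tested genes. Only 8 of the 42 named subunits and factors lay above 0, against 48.3% of all tested genes. Of the 33 subunits of the 20S and 19S particles, 3 did.

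Between pregnancy and anestrus, 0 of 56 members were called by edgeR, where 5.83% of all tested genes were called and 1.43% with the fold threshold. There were 11 members with an unadjusted p under 0.05, 9 of them higher in pregnancy. Of the 14508 tested genes, 3299 reached that level, 1588 of them higher. Of the 42 named subunits and factors, 37 had a log2 fold change above 0, and so had 53.5% of all tested genes. The median was 0.14 for the members and 0.03 for all tested genes. EMC8, a subunit of the membrane insertion complex, came closest at 0.62 (SE 0.19, edgeR adjusted p = 0.0559), and PSMD14 next at 0.36 (SE 0.11, edgeR adjusted p = 0.0595). PSMB10 stood at 0.47 (SE 0.20) and PSME4 at -0.34 (SE 0.13), with edgeR adjusted p of 0.174 and 0.131. RBPMS and MITD1, members under another name, stood at -0.46 (SE 0.20) and -0.22 (SE 0.13), with edgeR adjusted p of 0.174 and 0.330. DESeq2 called 4 members here, all higher, which is 7.14% against 10.4% of all genes. Limma on log2(FPKM + 1) called 16, which is 28.6% against 15.2%.

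Between pregnancy and estrus, 4 subunits rose and none fell in edgeR's test. They were PSMD14, PSMD2, PSMA4 and PSMA5, of which the first 2 belong to the 19S particle and the others to the alpha ring. The 4 of 56 members are 7.14%, below the 14.4% of all tested genes called in this comparison, and the higher calls alone made up 5.77% of all genes. That order depended on the setting. DESeq2 called 9 members, 8 higher and PSME4 lower, which is 16.1% against 19.2% of all genes, whereas limma on log2(FPKM + 1) called 48.2% of the members, with 3187 of all 14508 genes, and on log2(FPKM + 0.1) 37.5% against 19.2% of all genes. No member passed with a log2 fold change of at least 1, as 2.67% of all genes did. RBPMS stood at -0.27 (SE 0.20) and the unnamed row ENSBGRG00000023884 at -0.41 (SE 0.44), with edgeR adjusted p of 0.405 and 0.582. The members' median log2 fold change was 0.23, against 0.04 for all tested genes. Of the 33 subunits of the 20S and 19S particles, 30 lay above 0, and so did 53.7% of all tested genes.

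PSMD14 is the deubiquitinase of the 19S lid, which removes the ubiquitin chain as the substrate enters. Its gene lies on chromosome 2 from 111600822 to 111714208. Its level was 24.7 to 29.5 CPM in anestrus (median 28.7), 21.5 to 29.4 CPM in estrus (median 24.9) and 31.6 to 45.2 CPM in pregnancy (median 33.7). Every Y-P library was above every library of the other 2 stages. The change against Y-E was 1.43-fold (log2 0.51, SE 0.11, 95% interval 0.28 to 0.74, edgeR adjusted p = 0.00515). It was called under all 10 other settings and in all 18 fits that left out 1 library, with log2 fold changes of 0.43 to 0.70.

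PSMD2, a scaffold of the 19S base, measured 153 to 181 CPM in anestrus, 148 to 166 CPM in estrus and 158 to 247 CPM in pregnancy. Only Y-P replicate 1, at 158 CPM, fell within the range of the Y-E libraries. The log2 fold change against Y-E was 0.34 (SE 0.10, edgeR adjusted p = 0.0327).

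PSMA5, an alpha ring subunit, measured 40.2 to 49.3 CPM in anestrus, 36.3 to 45.5 CPM in estrus and 42.1 to 71.7 CPM in pregnancy, with medians of 45.9, 39.5 and 48.4. Its log2 fold change against Y-E was 0.43 (SE 0.13, edgeR adjusted p = 0.0305). PSMA4, of the same ring, had medians of 46.6 CPM in anestrus, 44.0 in estrus and 53.5 in pregnancy, with a log2 fold change against Y-E of 0.40 (SE 0.12, edgeR adjusted p = 0.0327). The stages overlapped for both genes, and Y-P replicates 3 and 5 were the 2 highest libraries for each.

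**Figure D3:**
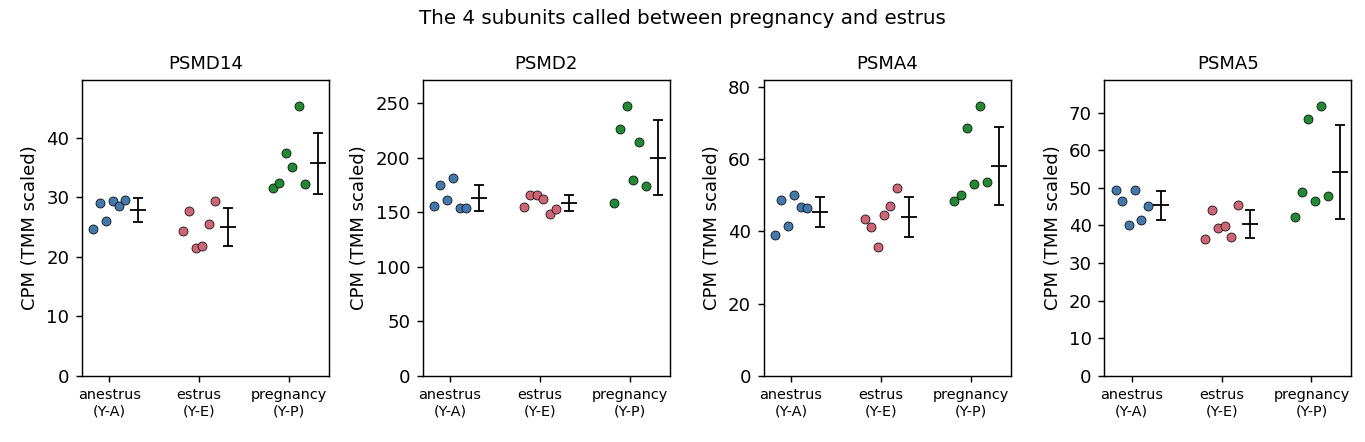
CPM after TMM scaling of the 4 subunits called between pregnancy and estrus, 1 point per library with mean and SD at the side (n = 6 per stage). The Y-P libraries of PSMD14, 31.6 to 45.2 CPM, all lie above those of the other stages, while for PSMD2, PSMA4 and PSMA5 the ranges overlap.

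The other 3 calls lay near the threshold, and leaving out any of several libraries ended each of them. When 1 library was left out, PSMA5 stayed called in 13 of 18 fits, PSMA4 in 12 and PSMD2 in 8, with log2 fold changes of 0.33 to 0.49, 0.32 to 0.45 and 0.27 to 0.40 and edgeR adjusted p of at most 0.0792, 0.0834 and 0.0847. Leaving out estrus replicate 1, 3 or 5 or pregnancy replicate 3 or 5 ended all 3 calls. PSMA4 was also lost without estrus replicate 2, and PSMD2 without anestrus replicates 1 or 6, estrus replicates 2 or 6 or pregnancy replicate 2. The number of members called was 1 without estrus replicates 1 or 5 or pregnancy replicates 3 or 5, 2 without estrus replicates 2 or 3, 7 without pregnancy replicate 6 (12.5% of the members, against 13.8% of all genes) and 9 without pregnancy replicate 1 (16.1 against 14.7%). With Y-E replicate 6 left out it was 5 (8.93 against 13.7%).

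Subunits just short of the threshold had positive values too. PSMA2 stood at 0.42 (SE 0.14), and the ATPases PSMC4 and PSMC3 at 0.42 (SE 0.14) and 0.49 (SE 0.17), with edgeR adjusted p of 0.0508, 0.0545 and 0.0577. All 7 alpha subunits, all 4 non-catalytic beta subunits and all 6 ATPases had positive values, from 0.08 for PSMC1 to 0.49 for PSMC3. Of all tested genes, 53.7% had positive values. The immunosubunits had 0.13 (PSMB8), -0.01 (PSMB9) and 0.45 (PSMB10), with 95% intervals of -0.25 to 0.50, -0.53 to 0.51 and 0.02 to 0.87. The constitutive catalytic subunits had 0.01 (PSMB5), 0.38 (PSMB6) and -0.08 (PSMB7), with intervals of -0.36 to 0.39, -0.03 to 0.79 and -0.29 to 0.13. The smallest edgeR adjusted p among these 6 was 0.149, for PSMB10. The upper limits of 5 of these 6 intervals exceeded 0.34, the smallest change among the 4 called subunits, and that of PSMB7 did not.

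**Figure D4:**
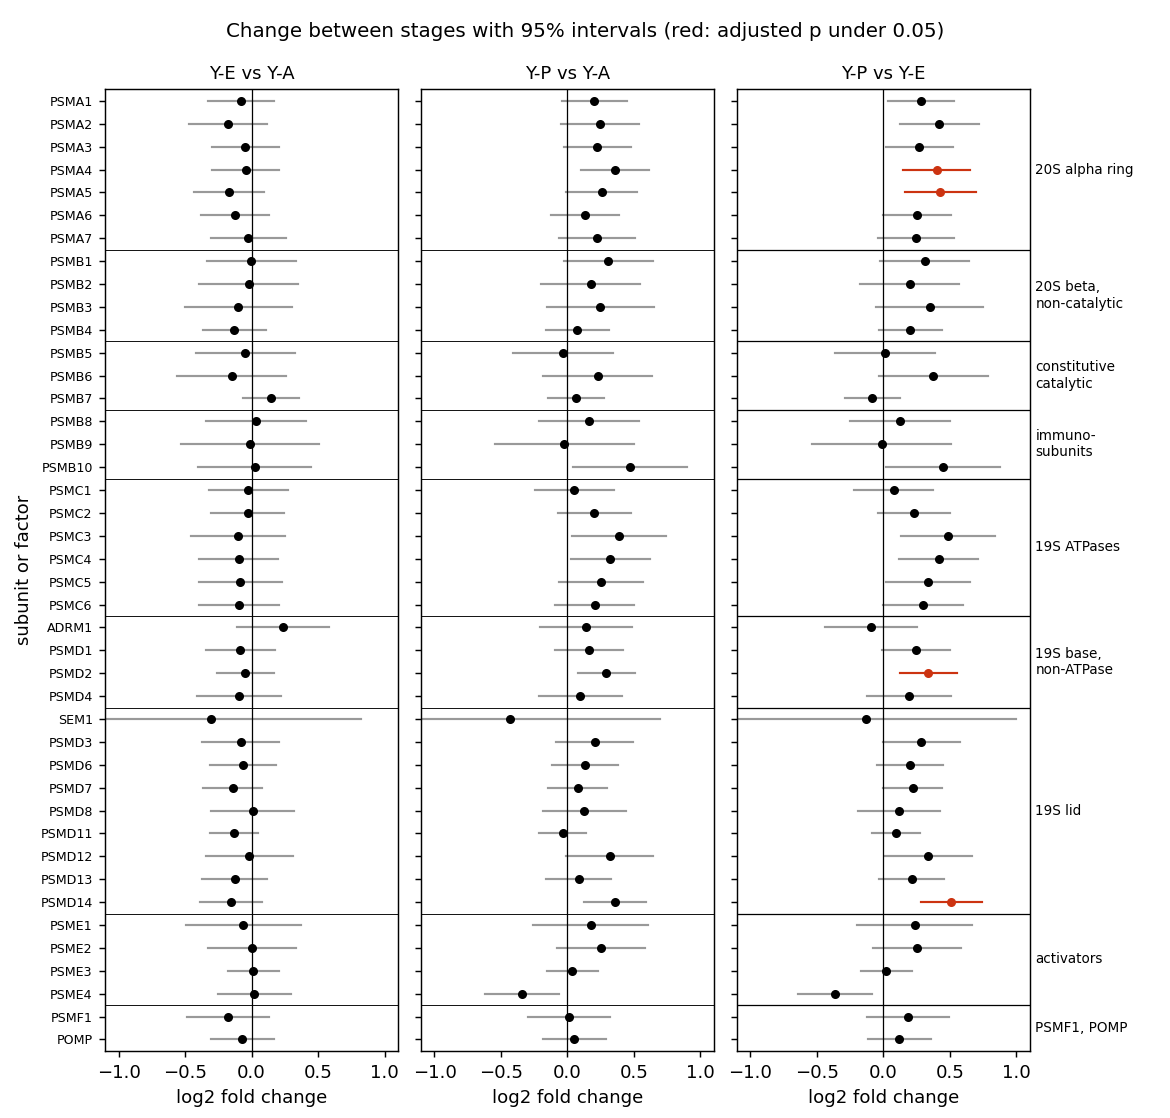
Log2 fold change (point) and 95% interval (line) of 42 subunits and factors in the 3 comparisons, by class, with the calls at an adjusted p under 0.05 in red and intervals of SEM1 cut at the axis limits. The 4 red points are PSMA4, PSMA5, PSMD2 and PSMD14 in Y-P vs Y-E, and no interval of a catalytic subunit is red.

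No activator was called by edgeR in any comparison. PSME1 and PSME2 had log2 fold changes of 0.24 (SE 0.21) and 0.25 (SE 0.16) between Y-P and Y-E. PSME3, which forms the nuclear activator, had 0.02 (SE 0.09). PSME4 ranged from 95.8 to 123 CPM in anestrus, 102 to 131 CPM in estrus and 61.4 to 116 CPM in pregnancy, with a log2 fold change of -0.36 between Y-P and Y-E (SE 0.13, edgeR adjusted p = 0.0732). PSME4 was called with DESeq2 at -0.37 (adjusted p = 0.0431), and by edgeR at -0.46 without Y-P replicate 1 (adjusted p = 0.0185) and at -0.38 without Y-A replicate 1 (adjusted p = 0.0495). Without Y-P replicate 1 it was also called in Y-P vs Y-A, at -0.44 (edgeR adjusted p = 0.039). PSMF1 and POMP had 0.19 (SE 0.15) and 0.12 (SE 0.11).

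The higher levels in pregnancy were not shared by all its libraries. Relative to its own mean over the 18 libraries, the median subunit lay 0.51 higher on the log2 scale in Y-P replicate 3, 0.33 higher in replicate 5 and 0.29 higher in replicate 2. In Y-P replicates 1, 4 and 6 it lay at -0.25, -0.09 and -0.12. The Y-A libraries ran from -0.14 to 0.07 and the Y-E libraries from -0.12 to -0.06. In Y-P replicate 3, 41 of the 42 were above their own mean and 28 had their highest value, whereas in Y-P replicate 1 only 8 were above it. Over all genes a like median, with a small constant added to the CPM, stayed between -0.03 and 0.02. TMM scaling sets most genes of a library to a common level, so this narrow range follows largely from the scaling.

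Depth, T cell markers and platelet markers also differed among the pregnancy libraries. The replicates 2, 3 and 5 held 40359672, 43123723 and 48401076 counts, and 1, 4 and 6 held 30343748, 33993445 and 33483929. Summed T cell markers were 1242, 1170 and 1448 CPM in the former and 864, 965 and 1005 CPM in the latter. Platelet markers were 100.3, 78.3 and 79.4 CPM against 100.3, 114 and 128 CPM. Their part in the result was not tested. PSMD14 was above the range of the Y-E libraries in all 6 of them. PSME4 ran the other way, at 61.4, 68.9 and 84.4 CPM in replicates 2, 3 and 5 and 89.7 to 116 CPM in the others.

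**Figure D5:**
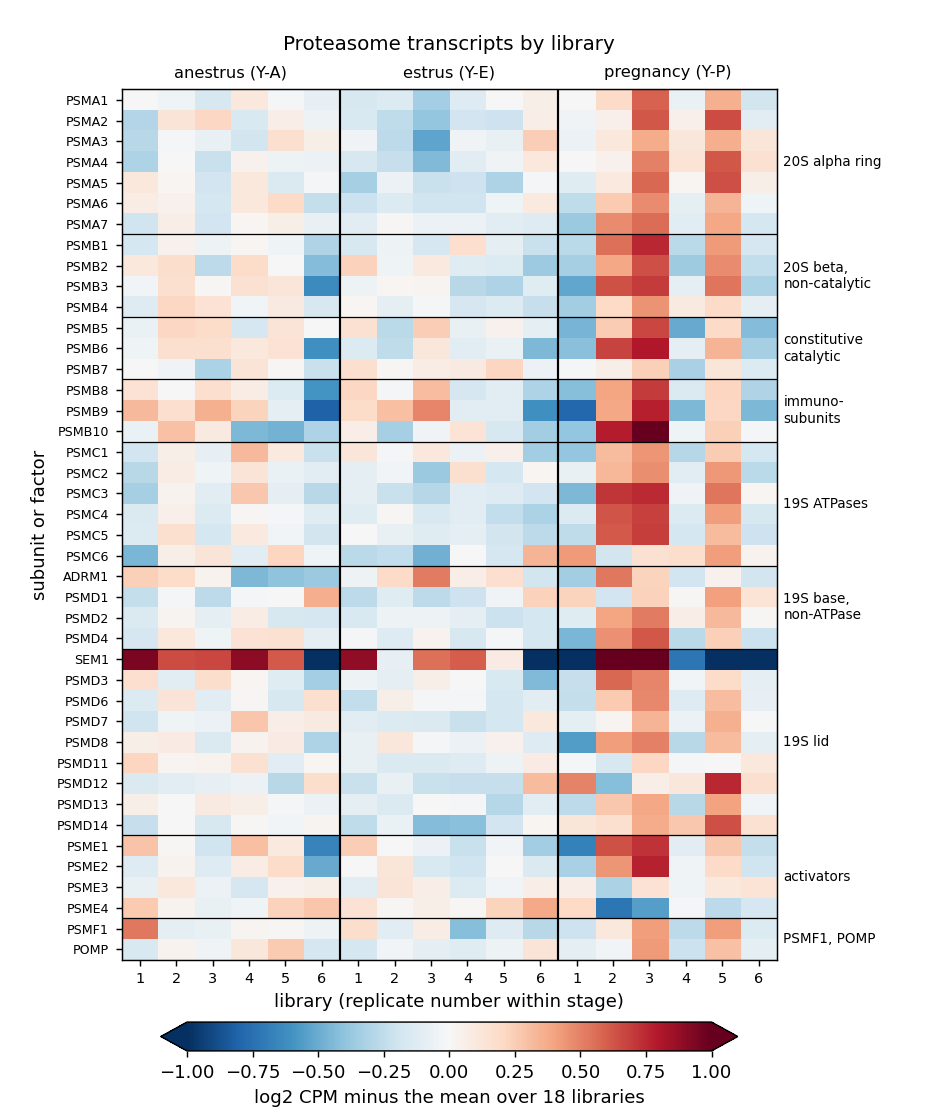
Log2 CPM of 42 proteasome subunits and factors (rows, by class) in 18 libraries (columns, by stage), each minus its own mean over the libraries, with the colour scale ending at -1 and 1. Y-P replicates 2, 3 and 5 are red for most rows, Y-P replicate 1 is blue for most, and SEM1 varies far more than any other row.

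SEM1, the smallest subunit of the lid, varied most among the 42, with a mean coefficient of variation of 60.4% within a stage against 7.57% for PSMD11. It was singled out after its values were seen. Its level was 8.32 CPM in Y-A replicate 6 and 30.9 to 38.9 CPM in the other Y-A libraries, and 7.14 CPM in Y-E replicate 6 and 19.2 to 37.3 CPM in the other Y-E libraries. In Y-P it was 42.7 and 57.1 CPM in replicates 2 and 3 and 4.89 to 12.3 CPM in the other 4. The low values thus included number 6 at each stage. PSMB9 also had its lowest value in number 6 in Y-A and in Y-E, at 61.1 and 69.8 CPM. The unnamed row ENSBGRG00000023884 carries the same orthology term as SEM1. It measured 3.56 CPM in Y-A replicate 6 and 6.14 to 10.6 CPM in the other Y-A libraries. In Y-P it was 8.66 and 9.49 CPM in replicates 2 and 3 and 0.71 to 4.51 CPM in the other 4. In Y-E its lowest value was 3.98 CPM in replicate 1, with 4.52 CPM in replicate 6. Whether these rows share reads was not tested.

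Scaling matters for these comparisons. Scaling by library size alone, in place of TMM, moved the median of all genes from 0.04 to 0.18 on the log2 scale in Y-P vs Y-E and from 0.03 to 0.19 in Y-P vs Y-A. It also raised the share of higher calls among all called genes from 39.9 to 70.3% and from 38.1 to 80.6%. The members called then numbered 17 and 6, all higher, which is 30.4% of the members against 17.6% of all genes and 10.7 against 9.19%, and the members' median exceeded that of all genes by a similar margin, at 0.36 and 0.30.

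Genes that work with the proteasome but lie outside its KEGG pathway were examined in 2 lists. Of 15 tested assembly chaperones, transcription factors and partner enzymes, 4 were called in Y-P vs Y-E, where 14.4% of all tested genes were, and 0 in the other comparisons, with a median of 0.12 in Y-P vs Y-E. PSMD9, a chaperone of the 19S base, rose from 7.02 to 10.4 CPM in Y-E to 9.79 to 17.2 CPM in Y-P (log2 0.67, SE 0.18, edgeR adjusted p = 0.0163), and was called under all 10 other settings and in all 18 fits without 1 library.

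NFE2L1, the transcription factor that restores proteasome gene expression when the protease is blocked, fell from 196 to 277 CPM in Y-E to 121 to 178 CPM in Y-P (log2 -0.54, SE 0.15, edgeR adjusted p = 0.0189). No Y-P library reached the lowest Y-E library. The call was lost without Y-E replicate 2 (log2 -0.47) and under library size or FPKM scaling, where the value was -0.38 to -0.35. NFE2L2, the related regulator of oxidative stress genes, fell by 0.56 on the log2 scale (SE 0.17, edgeR adjusted p = 0.0329), and AKIRIN2, which carries the proteasome into the nucleus, by 0.39 (SE 0.13, edgeR adjusted p = 0.0416). These 2 stayed called in 12 and 10 of 18 fits without 1 library, and under 7 and 5 of the 10 other settings.

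Of 7 tested genes of class I peptide supply and its interferon control, only IRF1 was called in Y-P vs Y-E, a share like the 14.4% of all tested genes, and 0 in the other comparisons. IRF1, an interferon-induced activator of immunoproteasome genes, ranged from 614 to 1011 CPM in Y-E and from 371 to 935 CPM in Y-P, with a log2 fold change of -0.61 (SE 0.19, edgeR adjusted p = 0.0393). The ranges overlapped, and it stayed called in 8 of 18 fits without 1 library and under 4 of 10 other settings. TAP1 and TAP2, the peptide transporter genes beside PSMB8 and PSMB9, had 0.18 (SE 0.11) and -0.08 (SE 0.15). TAP1, which shares bases with PSMB9, ranged from 216 to 351 CPM in Y-P.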

How the data were processed

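Per the file headers, the authors deposited 1 table with unnormalized counts and FPKM values per gene for 18 libraries of whole blood mRNA (oligo-dT selection, stranded kit). According to the methods, the authors trimmed reads with Cutadapt 1.9, aligned them with HISAT2 2.2.1 and estimated the deposited FPKM with StringTie 2.1.6 and ballgown. How the deposited counts were made, and whether strand was used, is not given in the sources used here, nor is the assembly name.

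For the tests, edgeR 4.0.16 (R 4.3.3) was run on the counts with TMM scaling (factors 0.871 to 1.12), filterByExpr, a quasi-likelihood fit of stage over all 18 libraries and two-sided tests, with Benjamini-Hochberg adjustment over the 14508 tested genes of each comparison. CPM are TMM-scaled counts. Fits with DESeq2 1.42.0 and limma 3.58.1, other scalings and filters, a replicate block and each library left out were alternatives. The procedure was tested on simulated data. Pair ratios used log2 of FPKM + 0.1 and exact permutation over 924 splits, adjusted over 9 comparisons. The members and gene lists were chosen with earlier results of these data known. Named are the catalytic subunits, activators, POMP and PSMF1 and the 3 higher and 3 lower members with the smallest adjusted p in each comparison. The extremes of each class and the called genes of the related lists are named too, others only where stated or to complete a class. Not every value of these genes is given. RefSeq was used for names and gene order only. Y-E replicate 6 was kept, and results are given without it where that changes a call. The values of 1 gene of the related lists are not reported here.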

Additional observations from a re-analysis of the deposited data

Results flagged for a closer look

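In 108 checks of a stage's 6 libraries, 6 had 1 library whose gap to the nearest other exceeded 0.625 of the stage's range, and chance flags about 1 group in 20. Y-A replicate 6 accounted for 3 of these. PSMB6 measured 27.4 CPM there against 40.7 to 46.9 CPM in the other 5 Y-A libraries. PSMD1, a scaffold of the 19S base, measured 100.1 CPM there against 65.1 to 78.1 CPM, and EMC8 12.4 CPM against 8.12 to 9.25 CPM. This library also had the largest share of hemoglobin counts in its stage, 16.7%, whose part in these values was not tested. PSMF1 measured 83.6 CPM in Y-A replicate 1 against 54.6 to 59.2 CPM in the others. The unnamed row ENSBGRG00000006451 measured 5.85 CPM in Y-E replicate 6 against 9.72 to 11.6 CPM. The log2 ratio of PSMB8 to PSMB5 was 4.80 in Y-P replicate 4 against 4.46 to 4.59 in the other pregnancy libraries.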

How the results depend on the processing

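Most results kept their direction and their side of the threshold. The number of members called in Y-E vs Y-A was 0 under every setting. With DESeq2's test, called members and all called genes numbered 4 and 1516 in Y-P vs Y-A and 9 and 2786 in Y-P vs Y-E. That test called 67 genes in Y-E vs Y-A. With library size only they were 6 and 1333 in Y-P vs Y-A, and 17 and 2553 in Y-P vs Y-E. With limma on log2(FPKM + 0.1) they were 10 and 1799 in Y-P vs Y-A, and 21 and 2788 in Y-P vs Y-E. On log2(FPKM + 1) they were 16 and 2205 in the former and 27 and 3187 in the latter. With only the 2 stages compared, which leaves fewer libraries in a fit, 1 member was called in each comparison with pregnancy. All called genes were then 482 (3.45%) in Y-P vs Y-A and 1747 (12.5%) in Y-P vs Y-E. With the replicate block, 6 members (10.7%) and 2608 of all genes (18%) were called in Y-P vs Y-E. All called genes were 1282 in Y-P vs Y-A and 14 in Y-E vs Y-A. The last became 54 with Y-E replicate 6 also left out, an alternative chosen after seeing the data. The 2 members added by the block were PSME4 at -0.38 (edgeR adjusted p = 0.0279) and PSMC4 at 0.39 (edgeR adjusted p = 0.0487), and it changed no other call of a member. The labels do not say that a number marks a cow. Same-numbered libraries deviated together with r of -0.0544 to 0.515 and correlated best with their own number in 14 of 18 pairs, a hint from the data and not from the design. Exact sign flips of the pair ratios could pass the correction only if most comparisons reached the smallest p that 6 pairs allow, and are not used. The cause of these changes was not tested.

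Leaving out each library in turn gave 0 to 4 members in Y-P vs Y-A and 1 to 9 in Y-P vs Y-E. In Y-P vs Y-A, 4 were called without Y-P replicate 1, 7.14% against 7.36% of all genes. There, 1 (1.79%) was called without Y-A replicate 6, Y-E replicate 3 or Y-E replicate 4, against 3.76, 5.09 and 5.7% of all genes. All called genes ran from 3 to 23 in Y-E vs Y-A, with 23 without Y-E replicate 6, from 386 (without Y-P replicate 2) to 1077 in Y-P vs Y-A and from 1372 (without Y-E replicate 5) to 2305 in Y-P vs Y-E. The ratio differences ran from -0.45 to -0.31 for PSMB9/PSMB6 and from 0.37 to 0.59 for PSMB10/PSMB7 in Y-P vs Y-E, and from -0.0075 (without Y-A replicate 6) to 0.16 for PSMB8/PSMB5 in Y-E vs Y-A.

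Sign changes were confined to small log2 fold changes that were called under no setting concerned. In Y-P vs Y-A, PSMB5 became 0.11, 0.10 and 0.10, and PSMB9 0.11, 0.12 and 0.12, under library size only, log2(FPKM + 0.1) and log2(FPKM + 1). In Y-P vs Y-E, PSMB7 became 0.056, 0.098 and 0.094 and PSMB9 0.12, 0.11 and 0.11 under the same settings. PSMB9 became 0.010 and 0.0090 in Y-E vs Y-A under the FPKM settings, 0.0094 in Y-P vs Y-E with only the 2 stages compared and 0.016 without hemoglobin complex genes. PSMF1 became -0.0068 in Y-P vs Y-A with only the 2 stages compared. PSMB5 became -0.041 in Y-P vs Y-E with the replicate block and -0.019 with Y-E replicate 6 left out as well, and PSME2 -0.044 in Y-E vs Y-A there. Without hemoglobin complex genes, PSME2, PSME3 and PSME4 became -0.019, -0.0097 and -0.00078 in Y-E vs Y-A. With each library left out, values in Y-E vs Y-A ran from -0.096 to 0.010 for PSMA4, -0.037 to 0.12 for PSMB10, -0.098 to 0.0046 for PSMB5, -0.065 to 0.091 for PSMB8, -0.15 to 0.093 for PSMB9, -0.18 to 0.0045 for PSME1, -0.083 to 0.060 for PSME2, -0.015 to 0.041 for PSME3 and -0.029 to 0.048 for PSME4. In Y-P vs Y-A they ran from -0.034 to 0.11 for POMP, -0.21 to 0.053 for PSMB5, -0.22 to 0.099 for PSMB9 and -0.068 to 0.098 for PSMF1. In Y-P vs Y-E they ran from -0.16 to 0.098 for PSMB5, -0.021 to 0.22 for PSMB8, -0.21 to 0.11 for PSMB9 and -0.010 to 0.083 for PSME3. The 42 subunits and factors held at least 178 counts in every library, and counting error was not separated from the spread between libraries.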
